A study of Homo sapiens with 7 samples.

Results

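The genes described here are the antibody genes of a human myeloma cell line: the variable segments of the heavy (IGHV), kappa (IGKV) and lambda (IGLV) chains, the constant genes of all 3 chains, and JCHAIN, the joining chain that links antibody units into polymers of IgA and IgM. They were taken by gene name from a table of 60666 gene identifiers. The names matched 350 genes, of which 287 had no read in any library and 29 had 1 to 9 reads. The remaining 34 genes, each with at least 10 reads summed over the 7 libraries, are the members. They are 1 of 151 IGHV genes, 6 of 103 IGKV genes, 13 of 76 IGLV genes, 8 of 9 heavy constant genes, 4 of 9 lambda constant genes, IGKC and JCHAIN. The summed reads of these same libraries chose the members, so their presence is not a finding. The gene types of the GENCODE 29 annotation mark 4 of them as pseudogenes, and the symbols of 2 mark orphons, which are copies outside the antibody loci.

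RNA-seq was run on total RNA of RPMI 8226, an established multiple myeloma line that is known to secrete a lambda light chain. The unedited cells (WT) gave 2 libraries. A CRISPR-Cas9 knockout of HDAC6 (KO) gave 2 libraries. HDAC6 is a cytoplasmic deacetylase whose ZnF-UBP domain binds ubiquitin. A second CRISPR-Cas9 line (RY) gave 3 libraries and carries a change of 2 residues in that domain, written R1155A and Y1155A in the design text, which stops ubiquitin binding. By the labels, all 3 groups share the cell line and its culture medium. The labels do not say whether an edited line is 1 clone or whether libraries of a group came from separate cultures. The p-values set the difference between groups against the spread among the sequenced libraries within groups. In the main fit all 3 groups share that estimate of spread, and it may reflect technical differences only. The spread was unequal: chi-square per gene between libraries of a group was 77.7 in WT, 27.8 in KO and 7.88 to 16.3 in RY. Adjusted p-values in KO against WT therefore lean on the closer RY libraries.

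An antibody is built from paired heavy and light chains, and each chain joins a variable region, which binds antigen, to a constant region. A B cell assembles each variable region by joining gene segments in its DNA, keeps either a kappa or a lambda chain, and passes this choice to all its descendants. The heavy constant gene in use sets the class: IGHM gives IgM, the IGHG genes give IgG, the IGHA genes give IgA and IGHE gives IgE. Myeloma arises from plasma cells, the descendants of B cells that secrete antibody in large amounts.

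Library totals ran from 31368968 to 42813888 counts. HDAC6 had 2060 and 3111 reads in the WT libraries, 677 and 428 in KO, and 3615, 4583 and 3190 in RY. In edgeR's quasi-likelihood test with Benjamini-Hochberg adjustment over 18281 genes, it was lower in KO than in WT (log2 fold change -2.08 with SE 0.21, adjusted p = 0.000189). Without the RY libraries, the same test gave HDAC6 an adjusted p of 0.0067. The RY libraries stood apart from what their label says. Of the 11 plasma cell markers that could be tested, 10 were lower in RY than in WT, where 25.4% of all genes tested were called lower. Their summed level was 359 to 393 counts scaled to library size (CPM) in RY, against 2770 to 3380 in WT and 2850 to 3560 in KO. TNFRSF17, the plasma cell surface receptor BCMA, had 0 reads in all 3 RY libraries, and SDC1, the plasma cell surface proteoglycan CD138, had 2, 2 and 0. Of 10 myeloid markers tested, 8 were higher and 1 lower in RY than in WT, where 23.9% of all genes tested were called higher. The summed level of the myeloid markers was 1310 to 1470 CPM in RY, against 126 to 164 in WT and 57.0 to 59.3 in KO. Of 4 early lymphoid markers tested, 3 (RAG2, CD34 and DNTT) were higher and 0 lower in RY than in WT. CD34 had 6 reads in WT and 0 in KO, and DNTT had 2 and 1. These 3, and myeloid markers such as LYZ (3 reads in WT, 0 in KO), passed the filter on low counts through RY. They were high there, so the counts of myeloid and early lymphoid markers called higher are descriptions. Every result on RY below concerns the libraries labelled RY, and the members called in KO against WT are given with and without them.

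The first 300 bases of the germline coding sequence of 6 members are shown because the results turn on which of them collected the reads. They are spliced GENCODE 29 sequences on build GRCh38, written 5′ to 3′, and not sequences of the cells themselves. IGLV2-14 lies at chr22:22758700-22759218 and IGLV2-23 at chr22:22697789-22698407. The lambda constant genes IGLC2 and IGLC3 lie at chr22:22900976-22901437 and chr22:22906342-22906803. IGLV3-9 lies at chr22:22819010-22819756. These 5 genes are on the plus strand, and IGHV4-59 lies at chr14:106627249-106627825 on the minus strand. IGLV2-14 and IGLC2 held most lambda reads of WT and KO. Capitals in IGLV2-23 mark its 10 differences from IGLV2-14 in this stretch, and capitals in IGLC3 mark its 3 differences from IGLC2, which are G38A, T212C and G247A counted from 1 at the 5′ end of the IGLC2 coding sequence. IGLV3-9 led the IGLV reads of RY, and IGHV4-59 is the only IGHV member.
IGLV2-14: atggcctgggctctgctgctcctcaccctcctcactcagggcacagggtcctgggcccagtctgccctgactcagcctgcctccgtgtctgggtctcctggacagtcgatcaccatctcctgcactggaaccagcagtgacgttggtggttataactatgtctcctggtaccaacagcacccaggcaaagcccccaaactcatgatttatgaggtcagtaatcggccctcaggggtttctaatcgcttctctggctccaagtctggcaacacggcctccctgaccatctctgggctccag
IGLV2-23: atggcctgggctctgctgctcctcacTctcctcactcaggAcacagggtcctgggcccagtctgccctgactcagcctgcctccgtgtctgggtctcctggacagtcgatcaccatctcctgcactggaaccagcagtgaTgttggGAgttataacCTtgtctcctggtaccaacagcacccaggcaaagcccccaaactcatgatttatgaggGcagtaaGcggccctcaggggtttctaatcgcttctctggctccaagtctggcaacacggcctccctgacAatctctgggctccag
IGLC2: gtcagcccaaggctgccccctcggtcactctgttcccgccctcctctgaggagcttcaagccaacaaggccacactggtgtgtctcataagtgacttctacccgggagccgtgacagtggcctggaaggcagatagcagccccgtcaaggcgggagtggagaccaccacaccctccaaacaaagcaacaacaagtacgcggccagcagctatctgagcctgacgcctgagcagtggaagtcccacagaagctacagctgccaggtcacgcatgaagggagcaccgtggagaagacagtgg
IGLC3: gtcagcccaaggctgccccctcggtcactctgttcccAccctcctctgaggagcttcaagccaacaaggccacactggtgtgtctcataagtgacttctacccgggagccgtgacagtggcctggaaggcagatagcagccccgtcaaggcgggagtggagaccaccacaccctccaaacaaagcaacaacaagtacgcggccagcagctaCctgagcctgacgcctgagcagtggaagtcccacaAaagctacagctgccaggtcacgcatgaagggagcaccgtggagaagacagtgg
IGLV3-9: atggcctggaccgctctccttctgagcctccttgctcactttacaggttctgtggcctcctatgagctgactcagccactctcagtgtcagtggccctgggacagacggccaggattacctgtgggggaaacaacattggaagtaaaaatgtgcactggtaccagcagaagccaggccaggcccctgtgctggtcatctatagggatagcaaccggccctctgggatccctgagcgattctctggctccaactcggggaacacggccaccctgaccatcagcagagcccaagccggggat
IGHV4-59: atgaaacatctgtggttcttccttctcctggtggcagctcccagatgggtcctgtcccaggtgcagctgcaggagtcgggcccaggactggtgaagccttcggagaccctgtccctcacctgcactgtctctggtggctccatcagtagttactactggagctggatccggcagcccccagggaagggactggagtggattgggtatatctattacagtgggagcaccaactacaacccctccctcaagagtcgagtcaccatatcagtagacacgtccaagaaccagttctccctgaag

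Lambda genes dominated the antibody reads of WT and KO. Among variable segments, IGLV2-14 held 98.0% ± 0.0629 (SD, n = 2) of all IGLV reads in WT and 97.6% ± 0.516 (SD, n = 2) in KO. Among lambda constant genes, IGLC2 held 78.2% ± 0.226 (SD, n = 2) in WT and 78.4% ± 0.0247 (SD, n = 2) in KO, and IGLC3 held 21.4% in each. The same genes led per kilobase of exon. IGLV2-14 reached 16980 and 20060 CPM per kb in the WT libraries and 20400 and 18490 in KO. IGLC2 reached 16240 and 19750 CPM per kb in WT and 20330 and 18470 in KO. The levels of IGLV2-14 and IGLC2 per kb did not differ beyond their spread in either group, and IGLC3 lay below both at 4490 to 5547 CPM per kb.

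**Figure D1:**
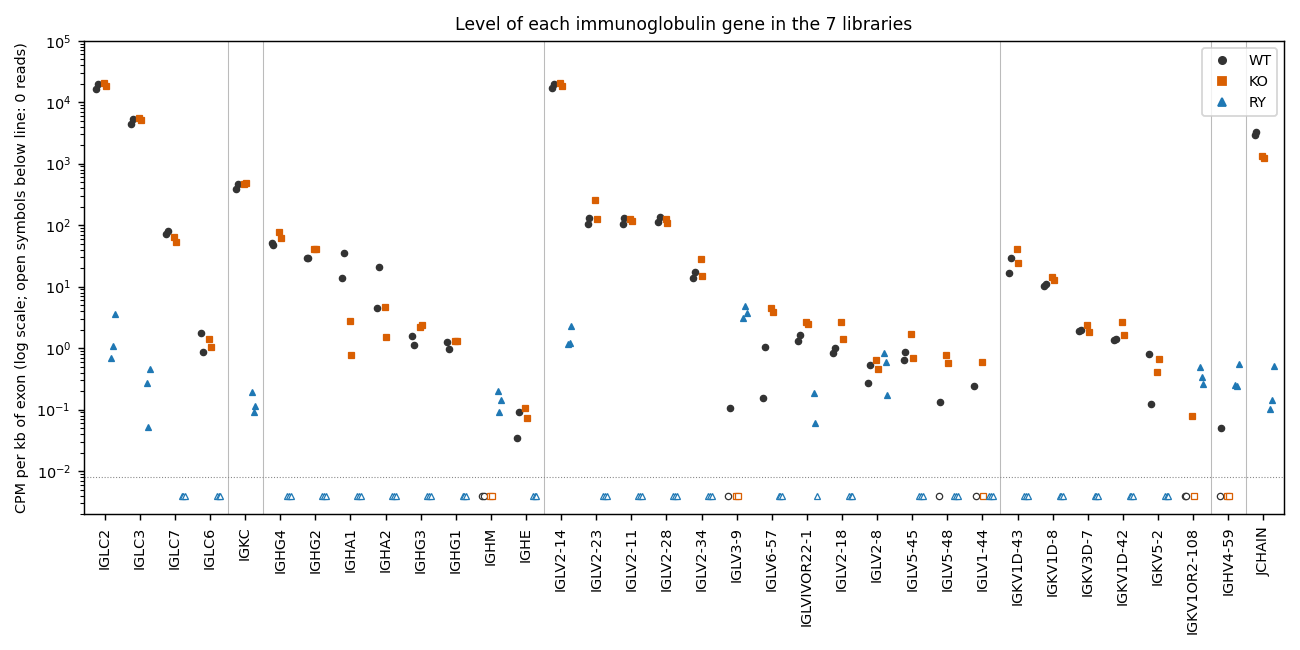
Level of each of the 34 genes in every library, in CPM per kb of exon on a log axis, grouped by class. Circles are WT, squares KO and triangles RY, and open symbols below the dotted line mark 0 reads. WT and KO overlap for IGLC2 and IGLV2-14 near 16240 to 20400 CPM per kb, while RY has 0 reads for 23 of the genes.

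The ratio of variable to constant lambda reads varied little between WT and KO. The reads of IGLV2-14 were 71.3% and 69.5% of the summed IGLC2 and IGLC3 reads in the WT libraries, and 68.6% and 68.4% in KO. IGLC3 had 27.6% and 27.2% as many reads as IGLC2 in WT and 27.3% and 27.4% in KO. IGLC2 and IGLC3 are identical at 314 of 317 aligned coding bases, with a longest shared run of 173 bases. How reads that match several genes were counted is not given in the sources used here. The split between IGLC2 and IGLC3 is therefore uncertain. IGLC7, another functional lambda constant gene, reached 72.98 and 80.88 CPM per kb in WT and 63.28 and 52.37 in KO. IGLC6, annotated as a pseudogene, had 11 to 20 reads in each WT and KO library.

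Behind IGLV2-14, the lambda variable segments with the highest levels were its relatives. IGLV2-28, a pseudogene, reached 125.8 ± 16.6 CPM per kb (SD, n = 2) in WT and 115.9 ± 11.4 in KO. IGLV2-23 reached 118.5 ± 18.4 CPM per kb in WT and 190.9 ± 91.7 in KO. IGLV2-11 reached 116.6 ± 17.9 CPM per kb in WT and 121.8 ± 5.01 in KO. The spreads of these 3 segments overlap, so their order is not resolved. Over the 4 WT and KO libraries, IGLV2-23 had 1.01% as many reads as IGLV2-14, IGLV2-11 had 0.625%, IGLV2-28 had 0.483% and IGLV2-34, a pseudogene, had 0.0686%. The identity of these 4 with the coding sequence of IGLV2-14 was 96.2%, 93.6%, 91.4% and 89.4%. IGLV2-8 and IGLV2-18 broke the order, with 95.2% and 94.6% identity but 0.00324% and 0.00703% as many reads. Segments of other families had 62.6% to 76.3% identity and at most 0.0107% as many reads. The reads of the IGLV2 relatives are uncertain for the same reason as those of IGLC3.

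**Figure D2:**
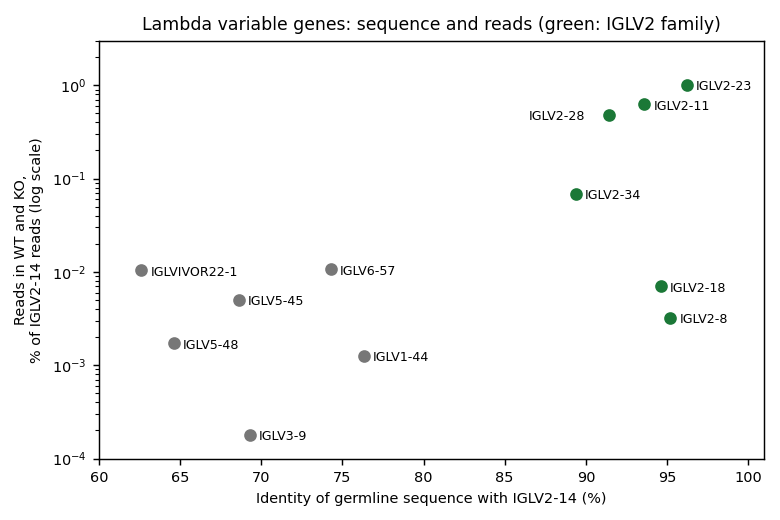
Reads of each other IGLV gene in WT and KO together, as a percentage of IGLV2-14 reads on a log axis, against the identity of its germline sequence with IGLV2-14. Green points are the IGLV2 family: IGLV2-23 sits highest at 1.01%, while IGLV2-8 and IGLV2-18 lie low despite identities of 95.2% and 94.6%.

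Kappa genes were present at a lower level. IGKC, the only kappa constant gene, had 392.7 and 466.0 CPM per kb in the WT libraries and 465.5 and 476.6 in KO. The kappa variable segments were lower still. IGKV1D-43 led them with 61.8% ± 8.6 (SD, n = 2) of IGKV reads in WT and 64.8% ± 5.63 in KO, at 16.69 and 28.95 CPM per kb in WT and 40.78 and 24.64 in KO. IGKV1D-8 followed with 30.3% ± 5.88 in WT and 28.3% ± 5.18 in KO. IGKV3D-7 held 3.96% and 3.02% on average, IGKV1D-42 held 2.72% and 2.95%, and IGKV5-2 held 1.16% and 0.893%. IGKV1D-43 and IGKV1D-8 did not overlap in any WT or KO library by their share of reads.

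**Figure D3:**
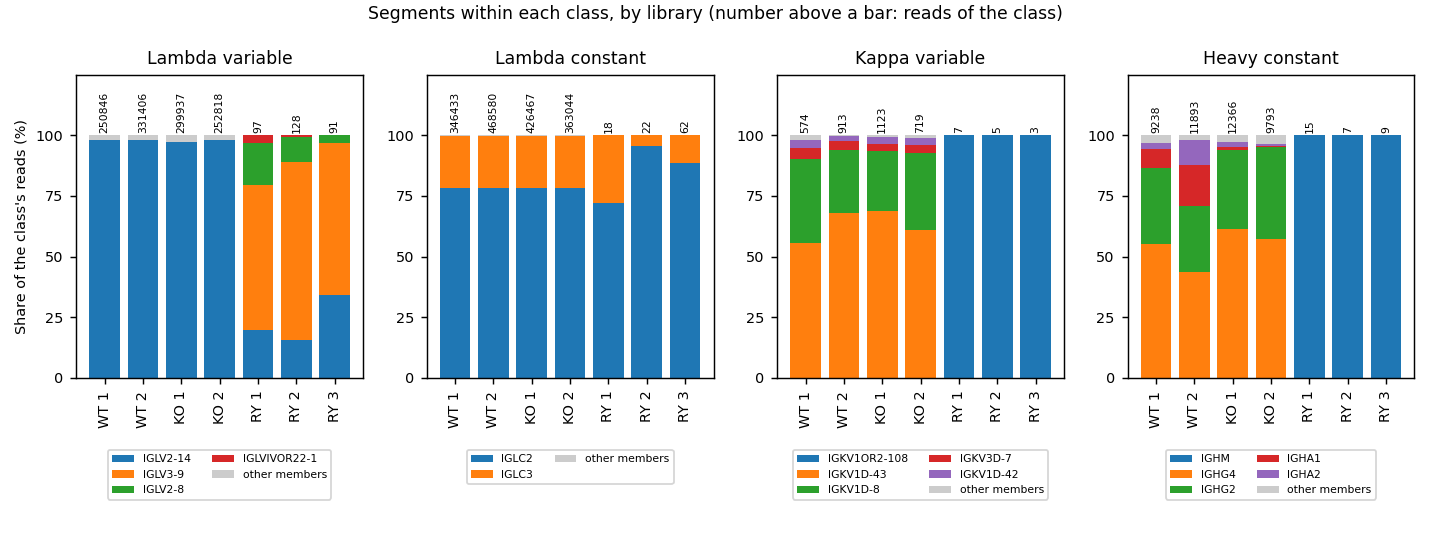
Share of the reads of each class held by each segment, per library, as stacked bars that sum to 100%, with the number of reads of the class above each bar. WT and KO share their leading segments, and the RY bars rest on between 3 and 128 reads.

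Each heavy constant gene lay below IGKC per kilobase of exon in WT and KO, while their summed reads of 9238 to 12366 per library exceeded the 7403 to 9813 of IGKC. Almost no heavy variable segment was read beside them. IGHG4 led with 49.5% ± 8.2 (SD, n = 2) of heavy constant reads in WT and 59.3% ± 3.14 in KO. Its level was 51.69 and 47.07 CPM per kb in WT and 78.01 and 61.17 in KO. IGHG2 came next at 29.40 and 29.12 CPM per kb in WT and 41.26 and 41.07 in KO. IGHG3 and IGHG1 lay lower, at 0.953 to 2.34 CPM per kb, and IGHE had 2 to 6 reads in each WT and KO library. IGHG1, IGHG2 and IGHG3 share 95.3% to 95.9% of aligned coding bases with IGHG4, so reads could be split between them. IGHM had 0 reads in all 4 WT and KO libraries, and IGHD, the constant gene of IgD, fell below the read minimum. IGHV4-59, the only IGHV member, had 1 read in WT and 0 in KO, against 21131 and 22159 heavy constant reads. It reached the read minimum through RY. Below that minimum, IGHV1OR15-6 had 2 reads in WT replicate 2 and 1 in KO replicate 2.

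The IGHA genes varied widely between libraries of 1 group. IGHA1 had 705 and 2046 reads in the WT libraries and 138 and 36 in KO. IGHA2 had 234 and 1200 reads in WT and 241 and 72 in KO. WT replicate 2 was the highest library for both genes. Together they made 10.2% and 27.3% of heavy constant reads in WT and 3.06% and 1.1% in KO. IGHA1 and IGHA2 share 96.8% of aligned coding bases, and the split of reads between them is uncertain.

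JCHAIN fell in KO. JCHAIN had 176745 and 220727 reads in the WT libraries and 79623 and 69059 in KO, or 5193 ± 409 CPM (SD, n = 2) and 2154 ± 118 CPM (SD, n = 2). Both KO libraries lay below both WT libraries. The drop was 2.42-fold, or -1.27 on the log2 scale with an SE of 0.22 (adjusted p = 0.00407, edgeR's quasi-likelihood test). The adjusted p was 0.367 with DESeq2, which ends the call, and ran from 0.000247 to 0.367 over all alternatives. Relative to the summed reads of IGLC2 and IGLC3, JCHAIN had 51.2% and 47.3% as many reads in WT and 18.7% and 19.1% in KO.

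Of the 7 heavy constant genes tested, 1 was called lower in KO and 0 higher, where 7.21% of all genes tested were called lower. IGHM is among the 7 through its RY reads and, with 0 reads in WT and KO, could not be called. IGHA1, the constant region of the main serum IgA, fell 14.3-fold in KO (log2 fold change -3.81 with SE 0.615, adjusted p = 0.00593 by edgeR). Without WT replicate 2 the value for IGHA1 was -2.96, and without KO replicate 1 or 2 it was -5.02 or -3.15. IGHA2 had a log2 fold change of -2.02 (SE 0.746) with overlapping groups and did not pass the test (adjusted p = 0.13 by edgeR). Without WT replicate 1 it passed, at -2.73 with an adjusted p of 0.000581, and without WT replicate 2 it was -0.53. IGHG2 had 80.46 and 79.70 CPM in WT and 112.9 and 112.4 in KO, a log2 fold change of 0.49 (SE 0.0998) and an edgeR adjusted p of 0.0158 that stayed under the 2-fold limit. IGHG4 had a log2 fold change of 0.50 with an adjusted p of 0.0563, and its KO libraries lay above its WT libraries. IGHG3 had 0.76 with an adjusted p of 0.0731, and passed at 1.00 without WT replicate 1 (adjusted p = 0.0143). In the authors' deposited table, IGHA2 was listed as changed at -2.02 with an adjusted p of 0.0429.

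**Figure D4:**
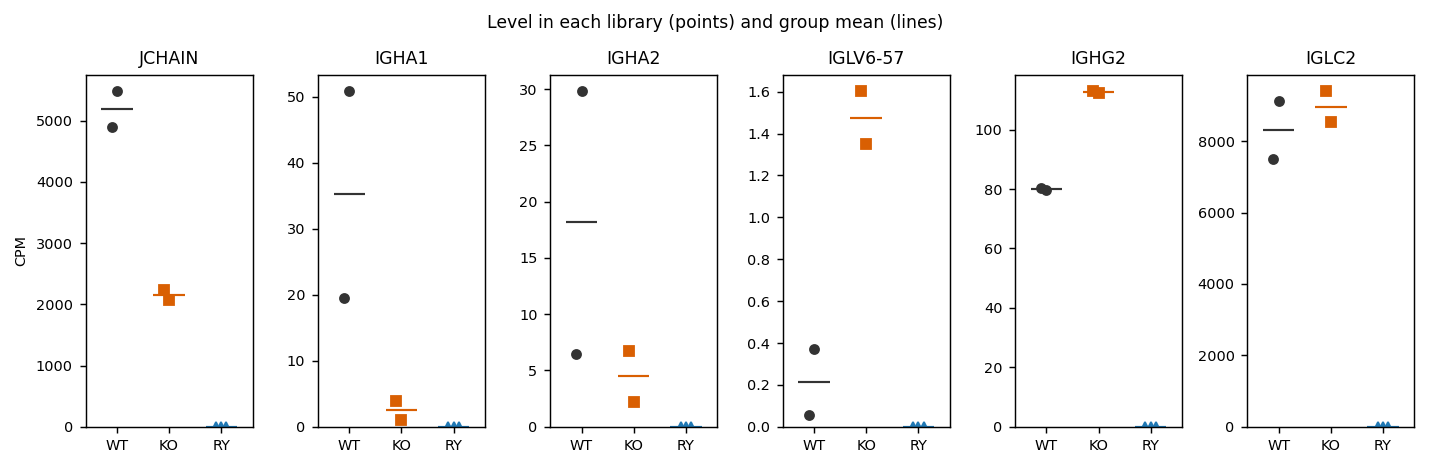
Level of 6 genes in each library in CPM on linear axes from 0, with points for libraries and lines for group means. JCHAIN and IGHA1 lie lower in KO than in WT without overlap, IGHA2 and IGLC2 overlap, IGHG2 and IGLV6-57 lie higher in KO, and RY lies at or near 0 throughout.

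A minor lambda segment had more reads in KO than in WT. IGLV6-57, a variable segment of another lambda family, had 2 and 15 reads in the WT libraries and 57 and 45 in KO. The groups did not overlap, and KO was 6.64-fold higher, or 2.72 on the log2 scale with an SE of 0.544 (edgeR, adjusted p = 0.0153). IGLV6-57 passed the filter on low counts through its KO libraries, where it was high, so nothing is read from this p-value. The log2 fold change was 1.98 without WT replicate 1 and 4.65 without WT replicate 2. IGLV6-57 made 0.0184% of IGLV reads in KO. IGLV5-48, too rare for the fit, had 0 and 2 reads in WT and 10 and 7 in KO, a ratio of 9.41. The authors' deposited table lists IGLV5-48 as changed at 3.09. It became a member through its KO reads, so its ratio is a description with no test.

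Of the 34 members, 28 passed the filter on low counts and 6 did not (IGKV5-2, IGHV4-59, IGLV5-48, IGHE, IGKV1OR2-108 and IGLV1-44). In KO against WT, 1 of the 28 was called higher and 2 lower, where a call needs an adjusted p under 0.05 and a change of at least 2-fold. Over all genes tested, 10.9% were called, 3.68% higher and 7.21% lower. A gene read mainly in 1 group can pass the filter through that group, as IGLV6-57 did through KO, so the count is a description. IGHM, with 0 reads in WT and KO, and IGLV3-9, with 2 in WT and 0 in KO, passed it through RY. Neither could be called in KO against WT. The same 3 genes were called when the fit left out the RY libraries, with JCHAIN at -1.27 on the log2 scale (edgeR, adjusted p = 0.0146), IGHA1 at -3.82 (adjusted p = 0.0223) and IGLV6-57 at 2.72 (adjusted p = 0.0455). For the leading lambda genes and IGKC the WT and KO libraries overlapped: IGLC2 had a log2 fold change of 0.11 (SE 0.286) and an edgeR adjusted p of 0.865, IGLV2-14 had 0.07 (SE 0.168, adjusted p = 0.851) and IGKC had 0.13 (SE 0.105, adjusted p = 0.479). IGLV2-23 had 0.69 (adjusted p = 0.203), set by KO replicate 1 with 4569 reads, against 2110 in KO replicate 2, and passed at 1.14 without KO replicate 2 (adjusted p = 0.00725).

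**Figure D5:**
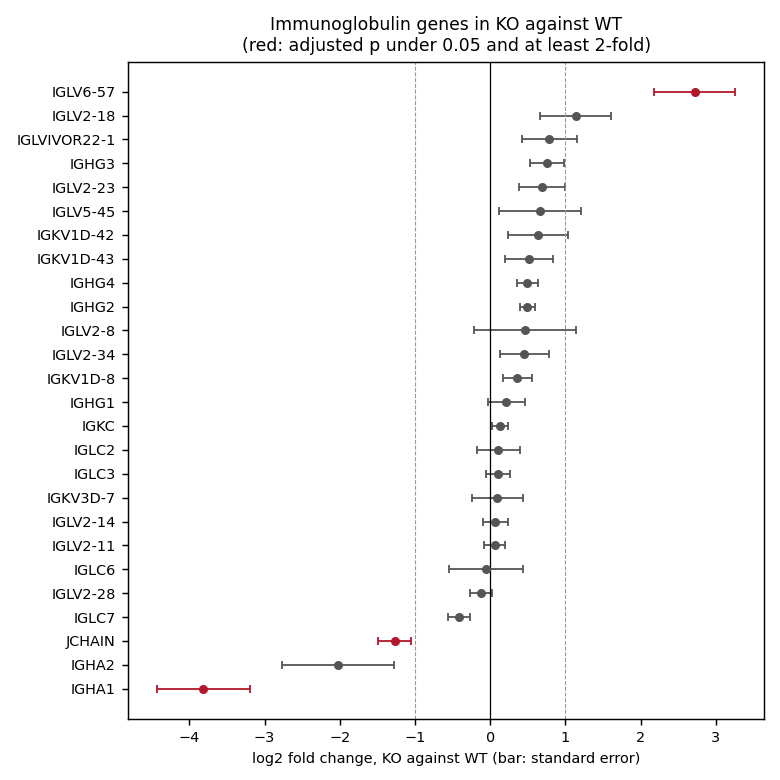
Log2 fold change of the tested members with more than 3 reads over WT and KO, KO against WT, with the standard error as a bar. Dashed lines mark 2-fold. IGLV6-57 at 2.72, JCHAIN at -1.27 and IGHA1 at -3.81 are called (red).

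Some markers of other cell types were called in KO against WT, where 7.21% of all genes tested were called lower. Of 10 myeloid markers tested, 4 were lower and 0 higher in KO. MPO, a granule enzyme of granulocytes, had 41.51 and 76.33 CPM in WT and 0.0843 and 3.51 in KO. Of 4 early lymphoid markers tested, 2 were lower, of 5 T cell markers 1, and of 6 epithelial and stromal markers 0. Some tested markers entered the fit through RY and were too rare for a call in KO, such as LYZ (3 reads in WT, 0 in KO) and DNTT (2 and 1). Of 9 B cell markers tested, 3 were lower and 0 higher. MS4A1, the B cell surface protein CD20, had 13.6 ± 3.22 CPM in WT and 0.608 ± 0.0541 in KO. The summed B cell markers were 220 and 234 CPM in WT and 179 and 157 in KO. Of 11 plasma cell markers, GPRC5D was higher and SLAMF7 lower, and the marker sums overlapped between WT and KO. SLAMF7, a plasma cell surface receptor, lost its call in 5 of 15 alternatives, among them the fit without the RY libraries (edgeR, adjusted p = 0.0717) and those without WT replicate 2 or either KO library. The part of these markers in the falls of JCHAIN and IGHA1 was not tested. In bulk RNA, fewer cells that express a gene and less RNA per cell cannot be told apart.

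In RY the antibody genes of WT were nearly absent. The members other than JCHAIN made 1.59% to 1.92% of all reads in WT, 1.83% to 2.04% in KO and 0.000389% to 0.000561% in RY, which was 491 reads over 3 libraries. IGLC2 had 13, 21 and 55 reads in the RY libraries, against 270485 and 367354 in WT, and was 10770-fold lower (log2 fold change -13.36 with SE 0.418, adjusted p = 1.17e-08 by edgeR). IGLV2-14 had 19, 20 and 31 reads and was 12250-fold lower than in WT. JCHAIN had 7, 10 and 28 reads and was 13270-fold lower. RY replicate 3 held the most reads of all 3 genes. Without it, the log2 fold change against WT moved from -13.36 to -14.27 for IGLC2, from -13.67 to -14.58 for JCHAIN and to -13.91 for IGLV2-14. IGKC had 4, 2 and 2 reads.

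Most heavy and minor light genes of WT had no reads in RY. IGHG4 and IGHG2 had 0 reads in each RY library, at least 5157-fold and 3060-fold lower than WT, taking a floor of 3 counts over the group. IGHA1 was at least 1378-fold lower and IGLV2-23 at least 2288-fold lower by the same floor. In all, 23 members had 0 reads in RY, and 9 had at least 10. Of the 28 tested, 2 were called higher and 25 lower in RY than in WT, where 49.3% of all genes tested were called, 23.9% higher and 25.4% lower. Against KO the counts were also 2 and 25, where 50.0% of all genes were called, 24.2% higher and 25.9% lower. WT and KO chose most members through their reads, so nothing is read from these counts, and the comparisons with WT and KO share the RY libraries.

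Other segments led in RY, on few reads. IGLV3-9, a lambda variable segment, had 58, 94 and 57 reads in RY, 0 and 2 in WT and 0 in both KO libraries. It held 65.3% ± 7.2 (SD, n = 3) of the IGLV reads of RY, ahead of IGLV2-14. The RY libraries all lay above WT, with a ratio of 69.6 that rests on the 2 WT reads. IGLV3-9 became a member through its RY reads, so this is a description with no test. Against KO it was at least 41.9-fold higher. Its sequence shares 69.3% of aligned bases with IGLV2-14. IGLV2-8, the segment beside it on the chromosome, had 17, 13 and 3 reads in RY and 5 to 12 in WT and KO, and did not pass the test (log2 fold change 0.45, adjusted p = 0.522 by edgeR).

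Among heavy genes, IGHM was the only constant member with reads in RY, with 15, 7 and 9. It was at least 6.88-fold higher than in WT and at least 6.21-fold higher than in KO. IGHM, too, became a member through its RY reads, and no test is given. IGHV4-59, the only heavy variable member, had 5, 5 and 9 reads in RY and 1 read in WT. Its ratio to WT was 12.7, resting on that 1 WT read, and it was too rare for the fit. IGHV4-59 also became a member through its RY reads, so this is a description with no test. IGKV1OR2-108, an orphon on chromosome 2, held all 15 reads of the IGKV members in RY. IGLC2 led the lambda constant genes of RY with 85.5% ± 12.0 (SD, n = 3) of 102 reads. In RY, JCHAIN had 38.9%, 45.5% and 45.2% as many reads as IGLC2 and IGLC3 together.

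The members at the read minimum were few in reads. IGLV1-44, with 14 reads, and IGKV1OR2-108, with 16, were just inside it, and IGKV4-1, with 8 reads, was just outside. Of the members, 27 reached the minimum in WT alone and 30 in KO alone. The 4 that reached it through RY alone were IGLV3-9, IGHM, IGHV4-59 and IGKV1OR2-108.

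Many of the genes that assemble and secrete antibody were lower in RY. Of 26 such genes tested, 0 were called in KO against WT by edgeR at an adjusted p under 0.05 and 2-fold. Over all genes tested, 10.9% were called. With edgeR, 7 of the 26 had an unadjusted p under 0.05, against 5041 of all 18281 genes. In RY against WT, 15 of the 26 were lower and 0 higher, where 25.4% of all genes were called lower, and their median log2 fold change was -1.39. MZB1, a chaperone of antibody assembly, had 1345 CPM on average in WT, 1505 in KO and 2.91 in RY. SEC11C, a subunit of the signal peptidase, had 15949 and 17739 reads in WT, 15739 and 14272 in KO, and 1480, 1392 and 1165 in RY. PPIB, a prolyl isomerase of the endoplasmic reticulum, had 1832 ± 50.7 CPM in WT, 1695 ± 35.7 in KO and 507.9 ± 6.47 in RY.

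Transcription and RNA processing factors of antibody genes, which include repressors, split. Of 21 tested, 4 were higher and 8 lower in RY than in WT, against 23.9% and 25.4% of all genes, and their median log2 fold change was -0.14. BCL6, a repressor of germinal centre B cells, was the 1 lower in KO, where 7.21% of all genes were lower. Its log2 fold change was -1.24 (adjusted p = 0.0246 by edgeR), and its call was lost in 6 of 15 alternatives, among them the fit without the RY libraries (adjusted p = 0.111) and those without WT replicate 2, KO replicate 2, RY replicate 1 or RY replicate 3. POU2AF1, the B cell coactivator of octamer-binding factors at antibody promoters, had 8188 and 13217 reads in WT, 5554 and 4444 in KO, and 0, 0 and 1 in RY. Its log2 fold change in KO was -0.94 (SE 0.181, adjusted p = 0.00599 by edgeR), under the 2-fold limit. IRF4, a plasma cell transcription factor, had 465.0 CPM on average in WT, 494.5 in KO and 0.337 in RY. PAX5, which maintains B cell identity before the plasma cell stage, had 20 and 43 reads in WT, 16 and 14 in KO, and 390, 388 and 349 in RY. The 9 tested B cell markers, which include PAX5, CD79A and CD79B, were split in RY against WT, with 4 higher and 5 lower. Among those lower were CR2, the complement receptor CD21, at -11.17 on the log2 scale, BLK, a kinase of B cell receptor signalling, at -5.16, and FCER2, the IgE receptor CD23, at -2.89. MS4A1 had 1045 reads in WT and 1 in RY.

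Of 12 genes of segment joining, 4 (RAG2, DNTT, LIG4 and HMGB1) were higher and 0 lower in RY than in WT, where 23.9% of all genes tested were called higher. Their median log2 fold change was 0.64, against -0.03 over all genes. RAG2 and DNTT passed the filter on low counts through RY, where they were high, so nothing is read from their calls in RY. In KO, 2 of the 12 (RAG1 and RAG2) were lower than in WT, where 7.21% of all genes were called lower. RAG1, a subunit of the recombinase, had a log2 fold change of -1.24 (adjusted p = 0.0268 by edgeR) and lost its call in 7 of 15 alternatives, among them the fit without the RY libraries (adjusted p = 0.123) and those without WT replicate 2, KO replicate 2 or any 1 RY library. RAG2 lost its call in 3 of 14 alternatives, 2 of them without a KO library, with an adjusted p of at most 0.07 by edgeR. RAG2, the other subunit, had 7 and 23 reads in WT, 0 in both KO libraries, and 835, 852 and 643 in RY. DNTT, which adds bases at segment joints, had 0 and 2 reads in WT, 1 and 0 in KO, and 41, 47 and 44 in RY. With so few reads in WT and KO, DNTT could not be called in KO against WT. Of 11 tested genes of class switching and hypermutation, 0 were called in KO, where 10.9% of all genes tested were called. SAMHD1, which breaks down free nucleotides, was the 1 lower in RY than in WT, where 25.4% of all genes were called lower. With edgeR, 2 of the 11 had an unadjusted p under 0.05 in KO, against 5041 of all 18281 genes. CD79A and CD79B, the signalling partners of the surface antibody, had 2.24 and 0.183 CPM on average in WT and 11.8 and 1.15 in RY.

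Neighbours of JCHAIN and of the lambda locus were called in both directions. Among 5 tested genes beside JCHAIN on chromosome 4, 2 were lower in KO than in WT, where 7.21% of all genes were lower. MOB1B, a kinase adaptor of the Hippo pathway, had 3.80 ± 1.61 CPM in WT, 0.801 ± 0.14 in KO and 62.3 ± 1.83 in RY. DCK, which phosphorylates deoxycytidine, had 18.4 ± 1.65 CPM in WT, 8.67 ± 0.296 in KO and 82.7 ± 4.75 in RY. Both were higher in RY than in WT. RUFY3 had 42.2 ± 1.24 CPM in WT, 28.9 ± 1.40 in KO and 10.2 ± 0.0732 in RY, and UTP3 had 70.0 ± 12.8 in WT, 61.3 ± 10.7 in KO and 33.4 ± 1.26 in RY. Both were called lower in RY than in WT, at -2.05 and -1.07 on the log2 scale, and UTP3 lost its call without WT replicate 1 (-0.873) and with library size only (-0.874). Without WT replicate 1, DCK stayed under 2-fold in KO against WT, at -0.999. Of 8 tested genes in or beside the lambda locus, 5 were higher and 1 lower in RY than in WT. Over all genes tested, 23.9% were called higher and 25.4% lower in RY than in WT. In KO, 0 of the 8 were called by edgeR, where 10.9% of all genes tested were called. With edgeR, 3 of the 8 had an unadjusted p under 0.05, against 5041 of all 18281 genes. Of 10 tested antibody receptors and transporters, 5 were higher and 4 lower in RY than in WT, beside the same shares. In KO, 5 of the 10 were lower than in WT, where 7.21% of all genes were lower, among them FCRLA, a B cell Fc receptor-like protein, at -3.10 on the log2 scale (SE 0.274).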

How the data were processed

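Libraries were made with a stranded TruSeq kit from total RNA, per the labels' protocols. Build GRCh38 is named in the submitters' processing notes, along with HTSeq 0.9.1, STAR 2.7.4, edgeR 1.34.1 and FastQC. The strand setting and the treatment of reads matching several genes are not given in the sources used here. The authors deposited raw counts per gene, which were tested here. The log2 fold changes and adjusted p-values of the authors' deposited table are quoted where named. A normalized table was not used.

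The members and gene lists were chosen with earlier results of these data known. Symbols matched 60437 of 60666 identifiers and GENCODE 29 positions 58420. All 7 libraries entered 1 fit in edgeR 4.0.16 (R 4.3.3) with group as the only term, TMM factors and filterByExpr (minimum count 10), leaving 18281 genes. Adjusted p-values are Benjamini-Hochberg over these genes. edgeR offers a current and an earlier form of the quasi-likelihood fit, and the design did not name either. The earlier form was run first, several combinations of fit settings were then tried, and the current form was chosen with both results in view, because it matches an earlier analysis of these data. It called 1991 genes in KO against WT, and the earlier form 2001. With the RY libraries left out, the current form called 1462. The procedure was tested on simulated counts. CPM uses TMM-scaled totals. Lengths are the union of GENCODE 29 exons. Folds divide group reads by summed scaled totals. A floor of 3 counts stands for 0 reads. Library totals were 31368968 to 42813888, so 3 counts over a group are 0.0262 to 0.0435 CPM. No 2 libraries held identical counts. Identities come from Biopython 1.88 alignments with free end gaps. Named genes are HDAC6, JCHAIN, constant members, up to 4 leading variable members per class and group (2 in RY), members called against their class, members at the read minimum, and up to 4 called genes per list and comparison, or the 2 most abundant. Other genes named, such as IGLV2-8, IGLV2-18, IGLV2-34, IGLV5-48, TNFRSF17, PAX5, IGKV5-2 and IGHD, were chosen after their values were seen. Alternatives were DESeq2 1.42.0, other scalings and filters, the 2 groups alone, a replicate block and each library left out.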

Additional observations from a re-analysis of the deposited data

How the results depend on the processing

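JCHAIN lost its call in KO against WT with DESeq2, which left 1 member lower, while IGHA1 and IGLV6-57 were called under all 15 alternatives. The cause was not tested. Leaving out 1 library, 3 to 5 members were called in KO against WT, 1 to 2 of them higher. The number higher in RY was 4 against WT with no filter, 1 with a minimum count of 30 against WT and 1 against KO, and 1 to 3 against either with 1 library left out. IGLV6-57 lost its call in RY against WT without WT replicate 2 (adjusted p = 0.136). IGLV2-14 held 98.6% of IGLV reads in WT and 98.2% in KO without pseudogenes and orphons, and IGLV3-9 held 73.0% in RY over genes with at least 100 reads, both because fewer genes were counted. Of 1215 recomputed member fold changes, 17 changed sign or went to 0, all of genes that did not pass the test either way. IGLV2-8 in RY against KO went from -0.02 to 0.13 with library size only and to 0.34 with the replicate block; the cause was not tested. Leaving out 1 library, the log2 fold changes in KO against WT ran from -0.029 to 0.25 for IGLC2, -0.049 to 0.19 for IGLV2-14, -0.021 to 0.24 for IGLC3, -0.088 to 0.23 for IGLV2-11, -0.25 to 0.02 for IGLV2-28, -0.10 to 0.87 for IGLV2-34, -3.99 to 0.00 for IGLV3-9, -0.11 to 0.30 for IGKV3D-7, -0.50 to 0.51 for IGLC6 and -0.16 to 1.18 for IGLV5-45. For IGLV2-8 in RY against KO they ran from -0.43 to 0.35. Replicate numbers are shared across groups, but the labels name no common batch, and deviations of same-numbered WT and KO libraries correlated at -0.3. With 2 libraries per group, both numbers give the same value by construction. With the replicate block, 1603 genes were called in KO against WT in place of 1991, the members called stayed at 3, 27 and 27 in the 3 comparisons, and IGHG2 had an adjusted p of 0.11. The earlier quasi-likelihood form, added after seeing the data, gave JCHAIN an adjusted p of 0.0104, IGHA1 0.00811 and IGLV6-57 0.0362. With 2 libraries in WT and KO, and under 100 reads per class in much of RY, the RY shares have wide counting intervals.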

Other observations

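Joining segments fall outside the naming rule and were looked at after their values were seen. IGKJ1, a kappa joining segment, had 1080 and 1507 reads in the WT libraries, 1302 and 1130 in KO and 0 in each RY library. It had more reads than all IGKV members together in each WT and KO library, where these had 574, 913, 1123 and 719. IGLJ3, a lambda joining segment, had 12 to 21 reads in each WT and KO library and 0 in RY. No test was run on these genes.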
